A study of Rattus norvegicus with 8 samples.

Results

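Autophagy and lysosome genes were followed in primary neonatal rat ventricular cardiomyocytes kept in normoxia or ischemia, with or without eugenol. The set held every gene, in any of 5 deposited tables of differentially expressed genes, whose symbol began with Ulk, Wipi, Gabarap, Map1lc3, Atp6v or Atp6ap, with Atg or Lamp and a digit, or with Cts and a single letter, together with Sqstm1, Becn1, Tfeb, Tfe3 and Mcoln1. This gave 39 of the 9025 listed genes. Of these, 21 act in building or loading the autophagosome, 9 encode subunits or accessory proteins of the lysosomal proton pump, 5 encode cathepsin proteases, and 4 encode a lysosomal membrane protein, a lysosomal channel and transcription factors of lysosome genes. In RefSeq, 84 protein-coding rat genes carry such names, and the tables had an entry for 39 of them (46.4%), as they had for 32.8% of all protein-coding rat genes. The tables held 21 of 32 autophagosome genes, 9 of 27 pump genes, 5 of 18 cathepsins and 4 of 7 membrane and regulator genes. Map1lc3b, Atg5, Atg7, Lamp1 and Ctsd had no entry and were not analysed here.

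Autophagy wraps cytoplasm in a double membrane, the autophagosome, which then fuses with a lysosome. The ULK1 kinase complex starts the process, a lipid kinase complex built on beclin 1 marks the membrane, and ubiquitin-like conjugation enzymes attach proteins of the ATG8 family (LC3 and GABARAP proteins) to it, where they bind cargo receptors such as p62. Inside the lysosome a vacuolar ATPase pumps protons, and cathepsins break down protein at the acid pH this gives. In heart muscle, whose cells divide little after birth, this pathway is known for the turnover of mitochondria and protein aggregates and for its response to starvation and lack of oxygen.

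The cells came from the ventricles of Sprague Dawley rats 2 to 3 days old. For 24 h they were kept in normoxia or in what the labels call an ischemic condition, at 1% O2 and 5% CO2, and received 10 µM eugenol, the phenol of clove oil, or DMSO, the solvent control. Each of the 4 groups (normoxia with DMSO, normoxia with eugenol, ischemia with DMSO, ischemia with eugenol) had 2 RNA-seq libraries. The labels do not say whether both came from separate cell isolations, so the spread between them may be technical. Total RNA gave 14.7 to 17.7 megareads per library behind the deposited values. Levels are given as reads per megaread (RPM) of that total, and levels between genes as FPKM, which also divides by transcript length.

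The deposited tables list a gene for a comparison only where its unadjusted p was under 0.05. Counts in all 8 libraries were therefore at hand for 6582 genes, 30 of them members, and these genes had mostly been selected for a difference with ischemia. A count of called members is read against that background. Because 2 libraries against 2 cannot give an exact permutation p below 0.333, tests were made in an edgeR quasi-likelihood fit over these 6582 genes. The spread in that fit came from genes selected in the same libraries, so its p-values are not independent of that selection. Benjamini-Hochberg adjustment also counted the genes the authors tested but did not list, which does not undo the selection. A member was called where its adjusted p was under 0.05.

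Cardiomyocyte markers were present in every library. Their summed level over 12 genes was 45307 to 47022 RPM in normoxia with DMSO and 26091 to 28144 in ischemia with DMSO, and 11 of the 12 were lower in ischemia. Macrophage markers summed to 101 to 110.5 RPM over 9 genes in normoxia with DMSO and 44.1 to 45.1 in ischemia with DMSO, with all 9 lower. Fibroblast markers over 11 genes summed to 17726 to 18456 RPM and 13081 to 13119 RPM, with 6 lower and 4 higher. Endothelial markers fell from 222.4 to 246.8 RPM to 85.7 to 96.2 RPM over 5 genes, all lower, and smooth muscle markers over 9 genes from 4838 to 5896 RPM to 1781 to 1909 RPM, with 8 lower and 1 higher. Among all 6582 fitted genes 51.3% were called lower in ischemia with DMSO and 47% higher. A marker with no listed difference had no counts and could not enter these numbers. No marker measured in all libraries was at 0. In such bulk samples, fewer cells of a type and less RNA per cell cannot be told apart, and the part of this shift in the results below was not tested.

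Without eugenol, ischemia raised 21 of the 30 fitted members and lowered 9. The members as a group leaned higher: their median log2 fold change was 0.46, against -0.31 over all 6582 genes. Among all genes 47% were called higher and 51.3% lower, so a call rate of 98.3% over all genes leaves the count of called members no result about them. The changes were mostly of moderate size. Their median absolute log2 fold change was 0.71, against 0.84 over all genes, and 6 of the 30 changed at least 2-fold, where 39% of all fitted genes did. By class, autophagosome genes were higher in 12 and lower in 3 of 15 (median 0.59), and all 4 membrane and regulator genes were higher. Proton pump genes were split 3 and 3 (median 0.00), and cathepsins were higher in 2 and lower in 3 of 5 (median -0.37). In the authors' deposited table for the same comparison, which lists 32 of the 39 members, 20 were called higher and 9 lower. Of all 9025 genes with an entry in any table, as the 39 have, 74.4% were called there. Of the 16406 genes they tested, listed or not, 40.9% were called (19.7% higher and 21.2% lower). Genes of such names without an entry are not among the members, so this last share is not a like one. Both ischemia libraries lay outside the range of both normoxia libraries for all 30 fitted members, as they did for 99.6% of all fitted genes.

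**Figure D1:**
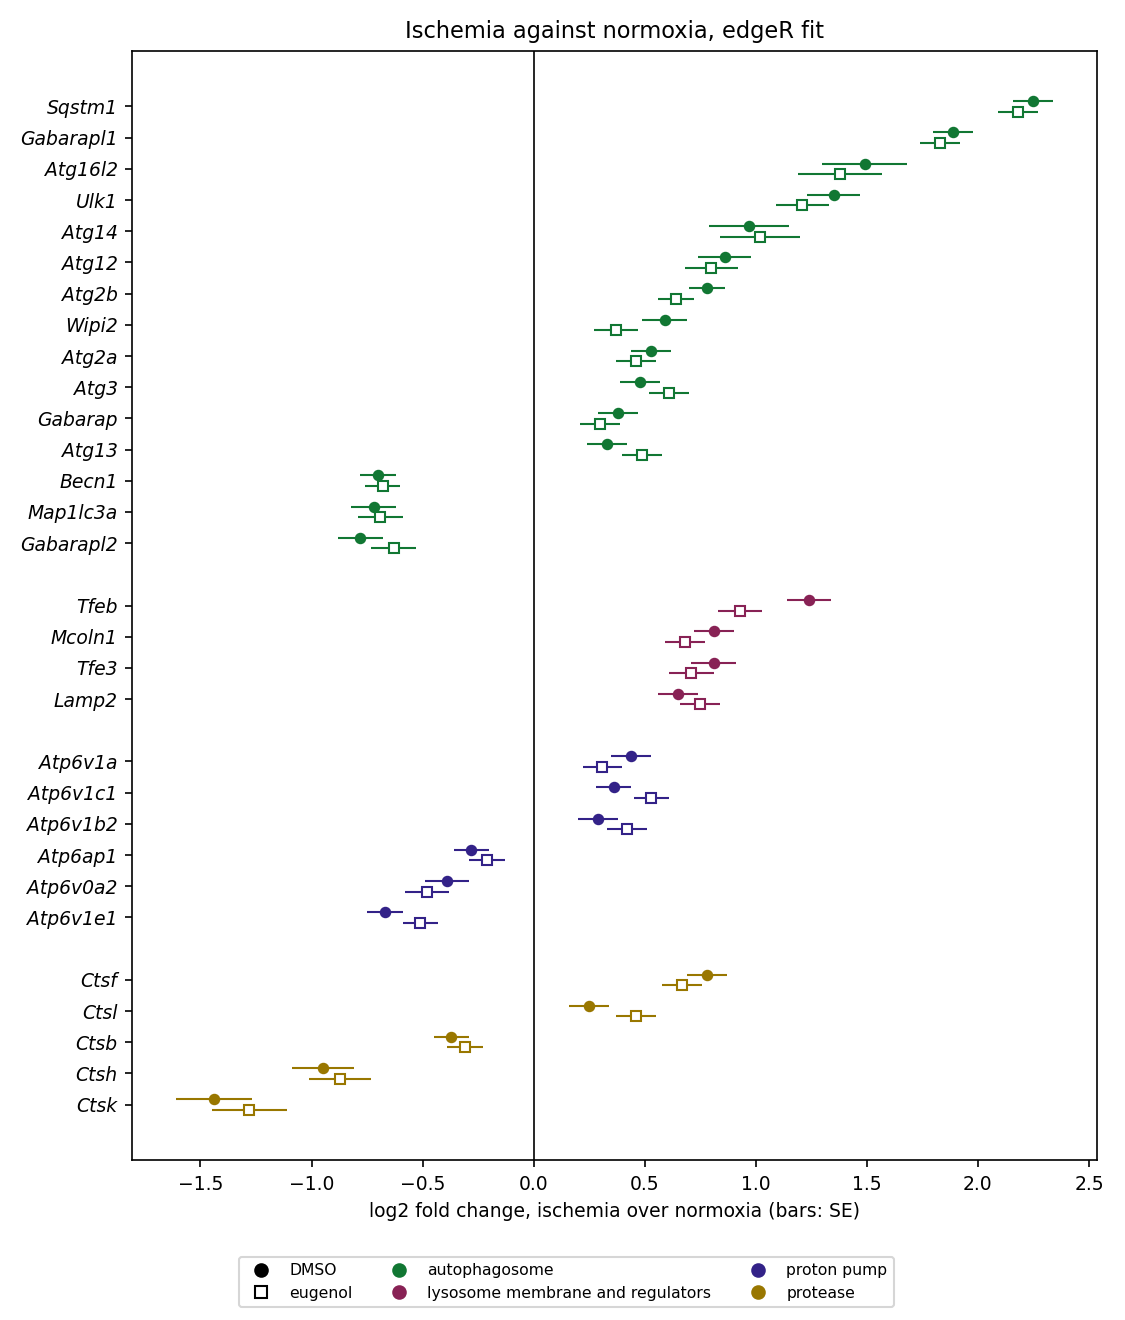
Log2 fold change of each of the 30 fitted members in ischemia over normoxia, with DMSO and with eugenol, from the edgeR fit (bars are SE), coloured by class. Sqstm1 and Gabarapl1 stand at 2.25 and 1.89 with DMSO and Ctsk at -1.44, and the paired symbols of a gene lie close together.

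Among the autophagosome genes, Sqstm1, which encodes the cargo receptor p62 and is also known as a target of the oxidative stress factor NRF2, rose most. Sqstm1 (chromosome 10, 35704730 to 35716294, minus strand, in the coordinates of the deposited tables, whose build is not given in the sources used here) stood at 239 and 212 RPM in normoxia with DMSO, 226 and 239 in normoxia with eugenol, 1083 and 1065 in ischemia with DMSO and 1102 and 1007 in ischemia with eugenol. Its log2 fold change in ischemia with DMSO was 2.25 ± 0.09 (SE), with an edgeR adjusted p of 6.56e-09. The ischemia and normoxia libraries were far apart and eugenol libraries lay beside their DMSO counterparts. Ulk1, the kinase that starts autophagosome formation (chromosome 12, 51908448 to 51934702, plus strand), measured 93.1 and 76.3 RPM in normoxia with DMSO, 82.6 and 105 in normoxia with eugenol, 216 and 218 in ischemia with DMSO and 208 and 226 in ischemia with eugenol. It rose by 1.35 ± 0.12 on the log2 scale (edgeR adjusted p = 1.52e-06), and no ischemia library overlapped a normoxia library. With DMSO the libraries of 99.6% of all fitted genes did not overlap either. Atg13, the ULK1 partner that holds the complex together, rose less, from 42.9 and 41.9 RPM to 52.6 and 53.9 RPM with DMSO (0.33 ± 0.09, edgeR adjusted p = 0.00971). That call was not made in the authors' deposited table (adjusted p = 0.0544) and was lost without the second ischemia DMSO library (0.31, edgeR adjusted p = 0.0655).

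**Figure D2:**
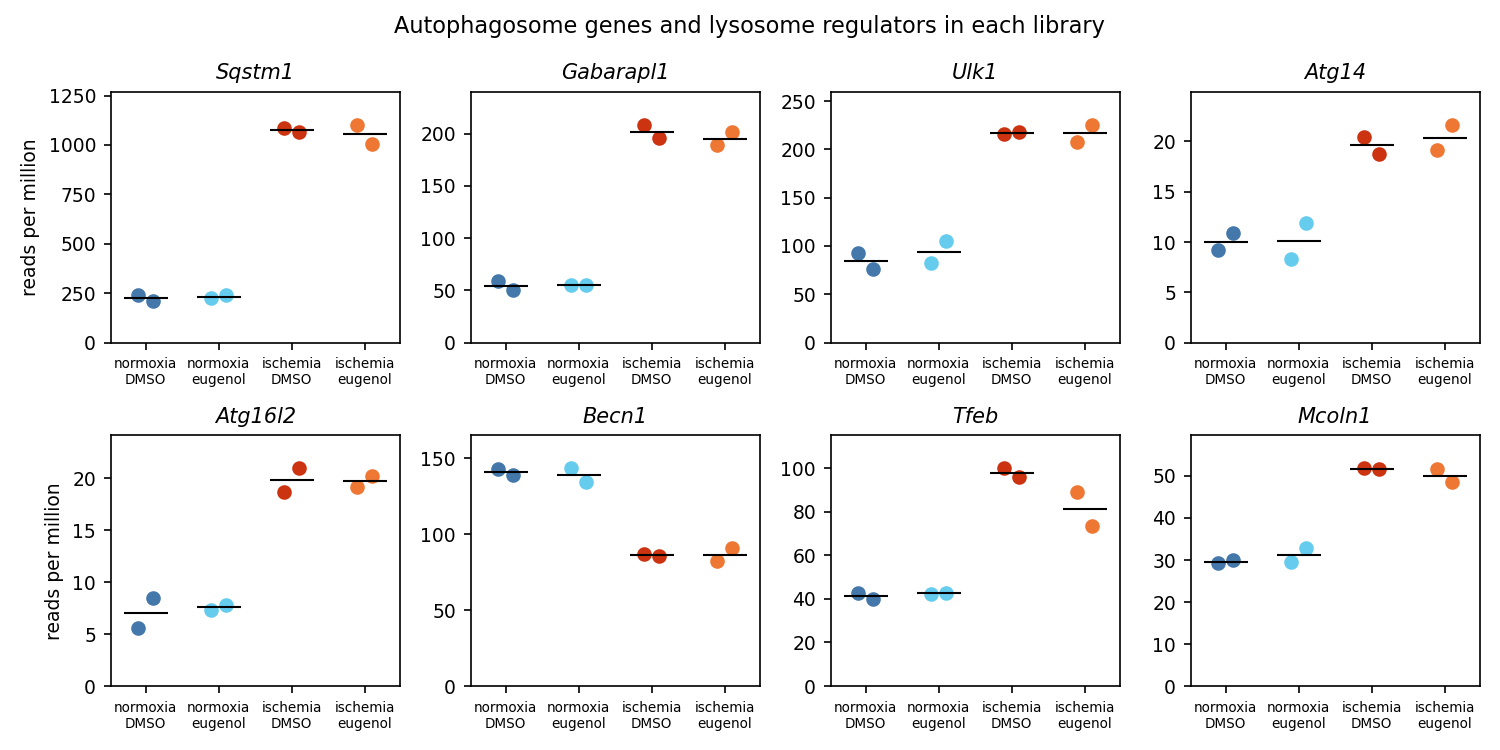
Levels in RPM of autophagosome and regulator genes in each of the 8 libraries (points) with the mean of the 2 libraries of each group (line), each panel on its own linear axis from 0. Sqstm1 stood at 212 to 239 RPM in the 4 normoxia libraries and at 1007 to 1102 RPM in the 4 ischemia libraries.

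Both members of the beclin 1 lipid kinase complex changed, in opposite directions. Becn1, the scaffold of the complex (chromosome 10, 89209940 to 89225297, minus strand), was at 143 and 139 RPM in normoxia with DMSO, 144 and 134 in normoxia with eugenol, 87.3 and 85.9 in ischemia with DMSO and 82.6 and 90.8 in ischemia with eugenol, and was lower in ischemia with DMSO (-0.70 ± 0.08 on the log2 scale, edgeR adjusted p = 1.84e-05). Atg14, the subunit that directs the complex to autophagosome formation, stood at 9.19 and 10.9 RPM in normoxia with DMSO, 8.28 and 11.9 in normoxia with eugenol, 20.5 and 18.8 in ischemia with DMSO and 19.1 and 21.7 in ischemia with eugenol and rose by 0.97 ± 0.18 (edgeR adjusted p = 0.00066). Neither overlapped between oxygen conditions, nor with DMSO did 99.6% of all fitted genes. Wipi2, which reads the lipid the complex makes, rose from 31.8 and 31.7 RPM to 47.7 and 47.7 RPM (0.59 ± 0.10, edgeR adjusted p = 0.000277).

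Of the other initiation and nucleation genes on a list of 14, 8 had counts in every library, and 7 were higher and 1 lower. Their median was 0.73, against -0.31 over all fitted genes, of which 47% were called higher and 51.3% lower. Rb1cc1, the large scaffold of the ULK1 complex, went from 106 and 91.8 RPM to 191 and 178 RPM with DMSO (0.90 ± 0.09, edgeR adjusted p = 4.77e-06). Pik3c3, the lipid kinase that works with beclin 1, went from 17.3 and 18.9 to 35.2 and 37.2 RPM (1.00 ± 0.11, edgeR adjusted p = 8.4e-06). Zfyve1 (0.91 ± 0.11), a marker of the membrane on which autophagosomes form, and Wdr45 (0.78 ± 0.10), a relative of the WIPI proteins, rose as well. The single lower gene was Tmem41b, an endoplasmic reticulum lipid scramblase (-0.63 ± 0.10).

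All 5 fitted genes of the lipid transfer and conjugation steps were higher, where 47% of all fitted genes were called higher. Atg2a and Atg2b, which carry lipid into the growing membrane, rose by 0.53 and 0.78 on the log2 scale, Atg2b from 54.8 and 58.3 RPM to 98.1 and 95.8 RPM (edgeR adjusted p = 6.24e-06). Atg12, the ubiquitin-like protein that is joined to ATG5, was at 30.6 and 33.8 RPM in normoxia with DMSO, 34.9 and 27.4 in normoxia with eugenol, 59.96 and 57.2 in ischemia with DMSO and 56.7 and 52.02 in ischemia with eugenol, a rise of 0.86 ± 0.12 (edgeR adjusted p = 5.07e-05). Atg3, the enzyme that passes ATG8 proteins to lipid, went from 50.1 and 45.3 RPM to 66.4 and 66.6 RPM (0.48 ± 0.09, edgeR adjusted p = 0.000717). Atg16l2, a relative of the ATG16L1 scaffold, was low and rose, at 5.62 and 8.52 RPM in normoxia with DMSO, 7.31 and 7.83 in normoxia with eugenol, 18.7 and 20.96 in ischemia with DMSO and 19.1 and 20.2 in ischemia with eugenol (1.49 ± 0.19, edgeR adjusted p = 3.06e-05). The libraries of each of these genes did not overlap between ischemia and normoxia with DMSO, as was so for 99.6% of all fitted genes.

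Within the ATG8 family, whose lipid-linked proteins coat the autophagosome, genes were called in both directions. Gabarapl1 (chromosome 4, 163293724 to 163302858, plus strand) rose from 58.7 and 50.5 RPM in normoxia with DMSO to 209 and 195 RPM in ischemia with DMSO, and from 54.8 and 55 to 189 and 202 RPM with eugenol. Its log2 fold change with DMSO was 1.89 ± 0.09 (edgeR adjusted p = 2.04e-08). All 4 of its ischemia libraries were above its 4 normoxia libraries, where with DMSO 99.6% of all fitted genes did not overlap. Gabarap, its close relative, rose less, from 200 and 192 RPM to 274 and 238 RPM (0.38 ± 0.09, edgeR adjusted p = 0.00286). The Gabarap call was lost without the first ischemia DMSO library (0.28, edgeR adjusted p = 0.0571). Gabarapl2 was lower, at 71.7 and 71.8 RPM in normoxia with DMSO, 70.4 and 68.7 in normoxia with eugenol, 39.8 and 43.5 in ischemia with DMSO and 40.5 and 49.5 in ischemia with eugenol (-0.78 ± 0.10, edgeR adjusted p = 4.23e-05). Map1lc3a, one of the LC3 genes, was lower as well, at 176 and 148 RPM in normoxia with DMSO, 161 and 155 in normoxia with eugenol, 98.3 and 98.8 in ischemia with DMSO and 89.8 and 106 in ischemia with eugenol (-0.72 ± 0.10, edgeR adjusted p = 9.08e-05). None of these directions turned under TMM or DESeq2 scaling.

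In FPKM, which lets the levels of different genes be set side by side, the make-up of the 4 measured ATG8 transcripts shifted. Gabarapl1 made up 6.49% to 6.90% of their summed FPKM in the 4 normoxia libraries and 21.1% to 21.7% in the 4 ischemia libraries. Map1lc3a made up 33.1% to 36.0% in normoxia and 17.4% to 19.4% in ischemia. Gabarap was the most abundant in every library, at 48.2% to 51.4% and 53.9% to 57.1%, and Gabarapl2 the least in ischemia, at 8.87% to 9.76% in normoxia and 4.29% to 5.50% in ischemia. The summed FPKM was 461.7 to 504.6 in normoxia and 532.1 to 583.2 in ischemia. These genes resemble each other in sequence, and reads shared between them were not tested. Map1lc3b is not part of the sum.

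**Figure D3:**
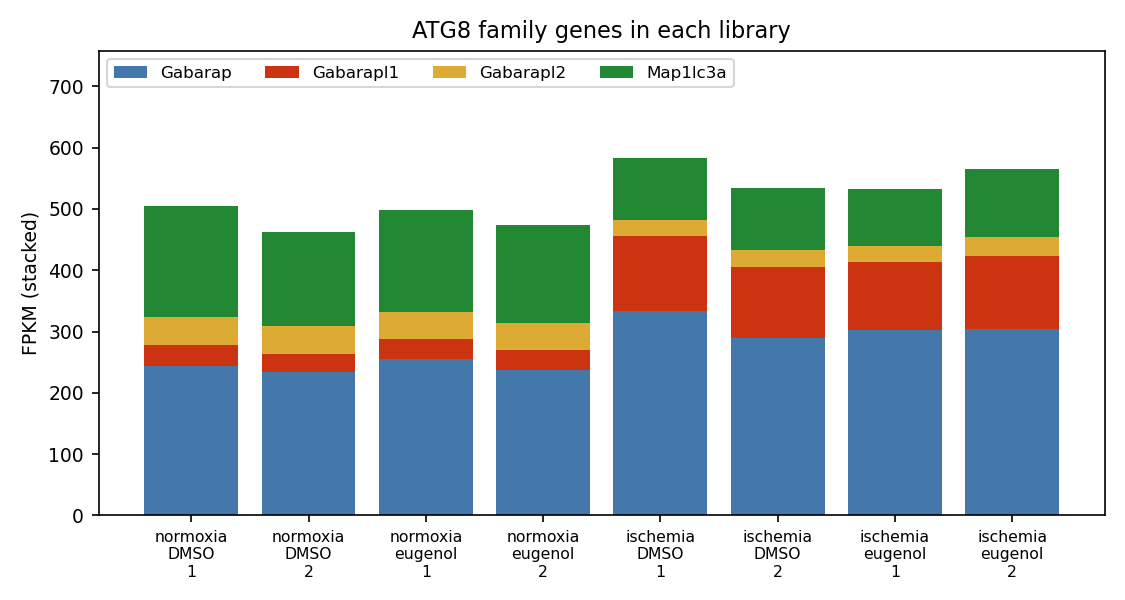
FPKM of the 4 measured ATG8 family genes, stacked to their sum, in each of the 8 libraries. The share of Gabarapl1 in the sum was 6.49% to 6.90% in normoxia and 21.1% to 21.7% in ischemia, with eugenol libraries beside DMSO libraries.

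Of other receptors and fusion genes on a list of 18, 8 were measured in every library, with 7 higher and 1 lower. Their median was 0.53, against -0.31 over all fitted genes (47% called higher and 51.3% lower). Optn, a receptor for damaged mitochondria and other ubiquitin-marked cargo, went from 80.1 and 76.1 RPM to 185 and 190.2 RPM (1.26 ± 0.10, edgeR adjusted p = 5.59e-07). Keap1, the NRF2 adaptor that p62 binds, went from 51.5 and 47.6 to 105 and 100.3 RPM (1.05 ± 0.09, edgeR adjusted p = 1.5e-06). Ncoa4, the receptor for ferritin, rose by 0.73 ± 0.10. Snap29, a fusion protein of the autophagosome, was the lower gene (-0.66 ± 0.10).

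All 4 members of the membrane and regulator class rose, where 47% of all fitted genes were called higher. Tfeb and Tfe3 are related transcription factors that move to the nucleus under starvation and switch on lysosome genes. Tfeb (chromosome 9, 15207822 to 15214596, minus strand) was at 42.9 and 39.8 RPM in normoxia with DMSO, 42.4 and 42.5 in normoxia with eugenol, 99.97 and 95.8 in ischemia with DMSO and 89.02 and 73.5 in ischemia with eugenol. Its log2 fold change with DMSO was 1.24 ± 0.10 (edgeR adjusted p = 8.35e-07), and no ischemia library reached down to the normoxia range. Tfe3 was at 36.4 and 31.8 RPM in normoxia with DMSO, 36.3 and 36.4 in normoxia with eugenol, 60.1 and 59.2 in ischemia with DMSO and 62.97 and 55.9 in ischemia with eugenol (0.81 ± 0.10, edgeR adjusted p = 2.52e-05). Mcoln1, a lysosomal calcium channel whose opening is known to activate TFEB, stood at 29.2 and 29.9 RPM in normoxia with DMSO, 29.5 and 32.9 in normoxia with eugenol, 51.9 and 51.6 in ischemia with DMSO and 51.5 and 48.5 in ischemia with eugenol (0.81 ± 0.09, edgeR adjusted p = 1.53e-05). Lamp2, a major glycoprotein of the lysosomal membrane, was at 154 and 129 RPM in normoxia with DMSO, 134 and 132 in normoxia with eugenol, 227 and 219 in ischemia with DMSO and 224 and 225 in ischemia with eugenol (0.65 ± 0.09, edgeR adjusted p = 6.47e-05). In each of the 4 genes all ischemia libraries were above all normoxia libraries. With DMSO, 99.6% of all fitted genes had no overlap between ischemia and normoxia libraries.

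Promoters from RefSeq (GRCr8, 250 bases before to 50 after the start site) were at hand for 34 of the 39 members. They were searched on both strands for the core CACGTG, the E-box to which TFEB and TFE3 are known to bind. The search also took an exact spelling of the CLEAR element, a longer form of that site known from human lysosome genes. The exact spelling of the longer form was in none of the 34, against 0.233% of all 33469 promoters. Other spellings of the element were not counted, so the search cannot show that these promoters lack it. The core was in 4 of the 34 (11.8%), against 6.42% of all. The 4 were Mcoln1 (at -22 and 5 from the start site), Atg3 (at -39 and -16), Atg14 (at 7) and Ctsf (at -149). They are printed with the core in capitals, since they are the members whose start regions carry it. These coordinates belong to GRCr8 and not to the deposited tables.
Mcoln1 promoter, chr12:6358008-6358307, plus strand: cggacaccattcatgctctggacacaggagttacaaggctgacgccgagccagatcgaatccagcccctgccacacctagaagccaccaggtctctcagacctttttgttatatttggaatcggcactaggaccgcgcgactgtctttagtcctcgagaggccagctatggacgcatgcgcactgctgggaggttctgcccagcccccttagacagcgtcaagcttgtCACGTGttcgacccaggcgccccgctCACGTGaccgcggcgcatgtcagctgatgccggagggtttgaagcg
Atg3 promoter, chr11:69159231-69159530, minus strand: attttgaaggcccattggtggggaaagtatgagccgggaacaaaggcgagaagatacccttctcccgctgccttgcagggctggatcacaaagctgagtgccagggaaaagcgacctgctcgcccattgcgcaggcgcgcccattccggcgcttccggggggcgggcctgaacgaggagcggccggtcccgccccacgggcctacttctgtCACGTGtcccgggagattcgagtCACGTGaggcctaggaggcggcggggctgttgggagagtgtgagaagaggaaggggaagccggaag
Atg14 promoter, chr15:23306766-23307065, minus strand: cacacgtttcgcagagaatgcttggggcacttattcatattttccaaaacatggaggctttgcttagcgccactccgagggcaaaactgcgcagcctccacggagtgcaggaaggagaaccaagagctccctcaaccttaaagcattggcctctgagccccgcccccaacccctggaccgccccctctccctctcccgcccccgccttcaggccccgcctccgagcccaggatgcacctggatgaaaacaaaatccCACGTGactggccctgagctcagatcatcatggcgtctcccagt
Ctsf promoter, chr1:211581919-211582218, plus strand: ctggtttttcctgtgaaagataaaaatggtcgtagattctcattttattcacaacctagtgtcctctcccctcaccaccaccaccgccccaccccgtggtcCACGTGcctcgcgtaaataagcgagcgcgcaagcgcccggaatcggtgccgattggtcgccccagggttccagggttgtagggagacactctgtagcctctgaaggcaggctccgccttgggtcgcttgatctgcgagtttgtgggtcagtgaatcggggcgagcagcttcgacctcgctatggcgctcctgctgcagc

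The promoters of the most strongly raised members are shown for contrast. Gabarapl1 has no CACGTG in this window but one ACGTG, the core of the hypoxia response element, at 26 on the other strand, where it reads CACGT (capitals). Sqstm1 has neither.
Gabarapl1 promoter, chr4:164666082-164666381, plus strand: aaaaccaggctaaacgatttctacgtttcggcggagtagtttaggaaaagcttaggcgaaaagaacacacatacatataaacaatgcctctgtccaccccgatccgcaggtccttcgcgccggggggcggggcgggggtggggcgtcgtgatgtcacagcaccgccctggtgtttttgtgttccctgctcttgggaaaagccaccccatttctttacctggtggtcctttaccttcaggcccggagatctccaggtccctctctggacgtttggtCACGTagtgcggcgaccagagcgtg
Sqstm1 promoter, chr10:35037701-35038000, minus strand: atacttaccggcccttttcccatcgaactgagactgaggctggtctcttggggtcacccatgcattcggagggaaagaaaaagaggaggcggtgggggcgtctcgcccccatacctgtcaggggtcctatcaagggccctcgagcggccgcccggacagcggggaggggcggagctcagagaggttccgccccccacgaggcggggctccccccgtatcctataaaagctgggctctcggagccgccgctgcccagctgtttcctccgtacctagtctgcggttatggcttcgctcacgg
ACGTG, which is contained in every CACGTG, was in 10 of the 34 promoters (29.4%), against 19.3% of all. TGANNNNGC, a loose pattern for the core of the antioxidant response element with any letter at N, was in 18 of the 34 (52.9%), against 40.5% of all. Neither Sqstm1 nor Gabarapl1 was among the 18. A match describes these letters only.

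Genes around the regulators were taken from lists of other transcription factors and of nutrient sensing genes. Of 9 measured among 12 other transcription factors of autophagy and lysosome genes, 8 were higher and 1 lower, with a median of 1.41. Over all fitted genes the median was -0.31, with 47% called higher and 51.3% lower. Foxo3, known to drive autophagy genes in muscle, went from 32.8 and 27.98 RPM to 119.6 and 128 RPM (2.03 ± 0.12, edgeR adjusted p = 5.7e-08). Atf4 rose by 1.49 ± 0.09, Nfe2l2, which encodes NRF2, by 1.41 ± 0.09, and Foxo1 by 1.78 ± 0.14. Ppargc1a, a driver of mitochondrial biogenesis, was the lower one (-0.66 ± 0.13). Of 20 measured nutrient sensing genes, 12 were higher and 8 lower, with a median of 0.63. Fnip1, a partner of folliculin on the lysosome surface, went from 42.2 and 38.4 RPM to 160 and 149.7 RPM (1.94 ± 0.09, edgeR adjusted p = 1.29e-08). Its relative Fnip2 rose by 1.69 ± 0.13, Tsc1, a brake on mTORC1, by 1.14 ± 0.10, and Rragc, a GTPase that ties mTORC1 to the lysosome, by 0.83 ± 0.09. Among the 8 lower genes, Rraga had the smallest adjusted p (-0.65 ± 0.09).

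Proton pump genes moved in both directions within the same complex, none of them by 2-fold. Of the V1 sector, which splits ATP, Atp6v1e1 fell (chromosome 4, 153351421 to 153373649, minus strand), at 113 and 107 RPM in normoxia with DMSO, 103 and 104 in normoxia with eugenol, 69.1 and 68.9 in ischemia with DMSO and 74.7 and 70.2 in ischemia with eugenol (-0.67 ± 0.08, edgeR adjusted p = 2e-05). Atp6v1a, which holds the catalytic site, rose, at 106 and 93.5 RPM in normoxia with DMSO, 102 and 102 in normoxia with eugenol, 135 and 135 in ischemia with DMSO and 123 and 129 in ischemia with eugenol (0.44 ± 0.09, edgeR adjusted p = 0.000917). Atp6v1c1, a subunit that joins the sectors, was at 95.6 and 93.1 RPM in normoxia with DMSO, 88.6 and 85.8 in normoxia with eugenol, 120.1 and 122 in ischemia with DMSO and 124 and 129 in ischemia with eugenol (0.36 ± 0.08, edgeR adjusted p = 0.0022). These 3 genes had non-overlapping libraries in ischemia and normoxia, as did 99.6% of all fitted genes with DMSO.

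Atp6v1b2, the other nucleotide-binding V1 subunit, was at 119 and 106 RPM in normoxia with DMSO, 103 and 115 in normoxia with eugenol, 142 and 132 in ischemia with DMSO and 143 and 149 in ischemia with eugenol (0.29 ± 0.09, edgeR adjusted p = 0.0217). Atp6v0a2, of the membrane sector that carries the protons, was at 50.2 and 49.6 RPM in normoxia with DMSO, 55.7 and 54.9 in normoxia with eugenol, 40.97 and 35.3 in ischemia with DMSO and 40.1 and 39.5 in ischemia with eugenol (-0.39 ± 0.10, edgeR adjusted p = 0.00474). Atp6ap1, an accessory protein of pump assembly, was at 284 and 259.9 RPM in normoxia with DMSO, 272 and 279 in normoxia with eugenol, 227 and 220.2 in ischemia with DMSO and 235 and 242 in ischemia with eugenol (-0.28 ± 0.08, edgeR adjusted p = 0.0113). The last 2 changes lay near the median of all genes. With DESeq2 size factors, which moved that median from -0.31 to -0.08 (TMM gave -0.23), Atp6v0a2 stood at -0.16 (edgeR adjusted p = 0.348) and Atp6ap1 at -0.05 (edgeR adjusted p = 1), and neither was called. The Atp6ap1 call was also lost with TMM scaling (-0.20, edgeR adjusted p = 0.0691). Without the second ischemia DMSO library both calls were lost (edgeR adjusted p = 0.08 and 0.0898), as was Atp6ap1 without the first normoxia DMSO library (edgeR adjusted p = 0.0894). The Atp6v1b2 call was lost without the second normoxia DMSO library (0.21, edgeR adjusted p = 0.174) and without the first ischemia DMSO library (0.23, edgeR adjusted p = 0.184).

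Cathepsin genes parted as well. Ctsk, a collagen-degrading protease best known from osteoclasts (chromosome 2, 196655469 to 196666446, plus strand), was at 26.5 and 23.5 RPM in normoxia with DMSO, 23.9 and 23.01 in normoxia with eugenol, 9.69 and 8.78 in ischemia with DMSO and 7.996 and 11.3 in ischemia with eugenol and fell most of all members (-1.44 ± 0.17, edgeR adjusted p = 1.39e-05). Ctsh, an aminopeptidase, was at 79.9 and 66.8 RPM in normoxia with DMSO, 64.8 and 65.01 in normoxia with eugenol, 31.7 and 44.6 in ischemia with DMSO and 34.4 and 36.9 in ischemia with eugenol (-0.95 ± 0.14, edgeR adjusted p = 0.000106). Ctsf (chromosome 1, 220114228 to 220119976, plus strand) was the only cathepsin raised by more than 0.5 on the log2 scale, at 45.8 and 41.7 RPM in normoxia with DMSO, 44.5 and 42.9 in normoxia with eugenol, 75.6 and 74.8 in ischemia with DMSO and 67.2 and 71.8 in ischemia with eugenol (0.78 ± 0.09, edgeR adjusted p = 1.25e-05). None of the 3 overlapped between oxygen conditions, nor with DMSO did 99.6% of all fitted genes. Beside these cathepsins, 9 of 9 measured macrophage markers were lower, at 44.1 to 45.1 RPM summed against 101 to 110.5 RPM. Of 11 fibroblast markers 6 were lower and 4 higher, where 51.3% of all fitted genes were called lower and 47% higher. The part of macrophages and fibroblasts in the cathepsin changes was not tested.

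Among the 5 measured cathepsins, the most abundant changed least. Cathepsins without an entry, such as Ctsd, could not be ranked. In FPKM, Ctsb was at 246 ± 3.74 (SD, n = 2) in normoxia with DMSO and Ctsl at 201 ± 16.8, while Ctsk was at 17.7 ± 1.51 and Ctsf at 23.5 ± 1.55. Ctsb was at 482 and 472 RPM in normoxia with DMSO, 488 and 490.4 in normoxia with eugenol, 380.3 and 359 in ischemia with DMSO and 371 and 418 in ischemia with eugenol (-0.37 ± 0.08, edgeR adjusted p = 0.0024). This is close to the median of all genes, and with DESeq2 size factors it was -0.14 and not called (edgeR adjusted p = 0.264). Ctsl was at 349.5 and 311 RPM in normoxia with DMSO, 293 and 298 in normoxia with eugenol, 396 and 390.1 in ischemia with DMSO and 384 and 431 in ischemia with eugenol (0.25 ± 0.09, edgeR adjusted p = 0.0355). The Ctsl call was lost in a fit of the 2 groups alone (0.25, edgeR adjusted p = 0.0517) and without any 1 of 5 libraries. Its log2 fold change was 0.17 without the second normoxia DMSO library (edgeR adjusted p = 0.275). It was 0.24 and 0.26 without the first and second ischemia DMSO library (edgeR adjusted p = 0.152 and 0.113), and 0.25 without the first or the second normoxia eugenol library (edgeR adjusted p = 0.0597 and 0.0595).

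**Figure D4:**
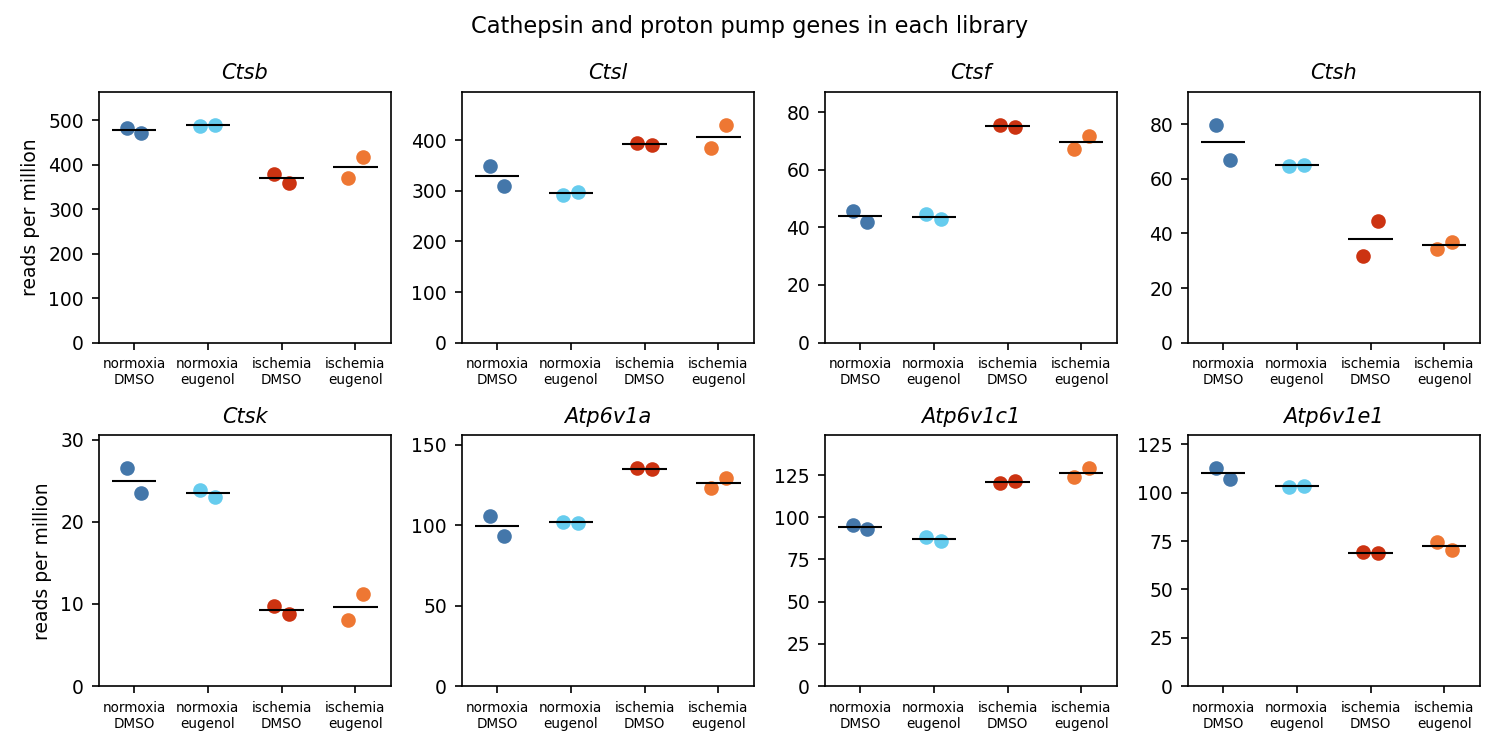
Levels in RPM of the 5 cathepsin genes and of 3 proton pump genes in each of the 8 libraries (points) with the mean of the 2 libraries of each group (line), each panel on its own linear axis from 0. Ctsh and Ctsk were lower and Ctsf higher in every ischemia library than in every normoxia library, and Atp6v1e1 moved against Atp6v1a and Atp6v1c1.

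The other lysosomal enzymes were divided too. Of 22 measured hydrolases on a list of 37, 10 were higher and 12 lower, with a median of -0.28, near that of all genes. Among all fitted genes 47% were called higher and 51.3% lower. The summed level of the hydrolases was higher in ischemia with DMSO, at 1814.9 to 1849.3 RPM against 1491.0 to 1643.8 RPM in normoxia with DMSO. Gaa, which breaks down lysosomal glycogen, went from 116 and 96.7 RPM to 250.2 and 257 RPM (1.25 ± 0.10, edgeR adjusted p = 7.78e-07). The carboxypeptidase gene Scpep1 rose by 0.86 ± 0.08 and the sulfatase gene Arsb changed by -1.04 ± 0.11. Among 3 measured cathepsin inhibitors, Cstb (0.62 ± 0.09) and Serpinb6 (0.25 ± 0.09, edgeR adjusted p = 0.0398) were higher and Cst3 (-0.33 ± 0.09) lower. In the authors' deposited table only 1 inhibitor was called higher and 1 lower.

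Of 18 measured lysosomal activators, membrane proteins and transporters, 10 were higher and 8 lower. Their median was 0.38, against -0.31 over all fitted genes (47% called higher and 51.3% lower). Their summed level went the other way, at 3892.5 to 4204.0 RPM in normoxia with DMSO and 3480.5 to 3535.1 RPM in ischemia with DMSO. Npc1, the cholesterol exporter of the lysosome, went from 28.7 and 28.1 RPM to 67.1 and 71.7 RPM (1.29 ± 0.09, edgeR adjusted p = 2.58e-07). The sialic acid exporter Slc17a5 (1.5 ± 0.15) and the chloride transporter Clcn7 (0.90 ± 0.09) rose, and Laptm4a (-0.97 ± 0.10) fell.

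With eugenol present, ischemia was compared with normoxia in 4 libraries that the DMSO comparison did not use. Of the 30 fitted members, 21 were higher and 8 lower, where 98% of all fitted genes were called (47.1% higher and 50.9% lower). Atp6ap1 was the 1 member not called (-0.21 ± 0.08, edgeR adjusted p = 0.057). All 30 kept the direction they had with DMSO, as did 99.7% of all fitted genes. The median absolute difference between both log2 fold changes of a member was 0.11, and the widest was 0.31, for Tfeb. Sqstm1 was at 2.18 ± 0.09, Gabarapl1 at 1.83 ± 0.09, Ulk1 at 1.21 ± 0.12 and Ctsk at -1.28 ± 0.17. Ctsl, with its small change in DMSO, was also called here (0.46 ± 0.09, edgeR adjusted p = 0.000756). In the authors' deposited table, which lists 34 of the 39 members, 23 were called higher and 10 lower. Of all genes with an entry in any table, as the 39 have, 72.9% were called there. Of all genes the authors tested, listed or not, 41.1% were called (19.6% higher and 21.5% lower), which is not a like share. The comparison of ischemia with eugenol against normoxia with DMSO, which shares its libraries with both, gave 21 higher and 8 lower of 30, where 96.6% of all fitted genes were called (46.3% higher and 50.3% lower).

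Eugenol itself left no called change in these genes. In ischemia 0 of 30 fitted members were called by edgeR, where 0.0152% of all fitted genes were called (1 gene), and 2 members had an unadjusted p under 0.05, Tfeb and Atg13. DESeq2 called 0, with 1 at an unadjusted p under 0.05. Log2 fold changes of eugenol over DMSO in ischemia ran from -0.27 to 0.21. In normoxia 0 were called by edgeR, where 0.0456% of all fitted genes were called, with 1 member at an unadjusted p under 0.05 (Atg2a, 0.23 ± 0.10), and DESeq2 gave 0 by either measure. There the changes ran from -0.18 to 0.23. None of the other pathway genes on the 7 lists was called in either comparison.

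Tfeb had the widest eugenol difference of the members. Its ischemia libraries were at 99.97 and 95.8 RPM with DMSO and 89.02 and 73.5 RPM with eugenol, which do not overlap, as was so for 30% of all fitted genes. The log2 fold change was -0.27 ± 0.10, with an unadjusted p of 0.0187 and an edgeR adjusted p of 1, and -0.26 with an adjusted p of 1 in the authors' deposited table, which called 0 of the 2 members it lists and 0.121% of all tested genes. In normoxia Tfeb was at 42.9 and 39.8 RPM with DMSO and 42.4 and 42.5 RPM with eugenol (0.04 ± 0.11). The test of the difference between the ischemia effects with and without eugenol gave -0.31 ± 0.15 for Tfeb (unadjusted p = 0.0546, edgeR adjusted p = 1). That test called 0 of the 30 members, with 0 at an unadjusted p under 0.05 and 0 of either kind by DESeq2, where 0.0152% of all fitted genes were called. The differences ran from -0.31 to 0.21. A p that misses the threshold does not show that eugenol had no effect on a gene.

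**Figure D5:**
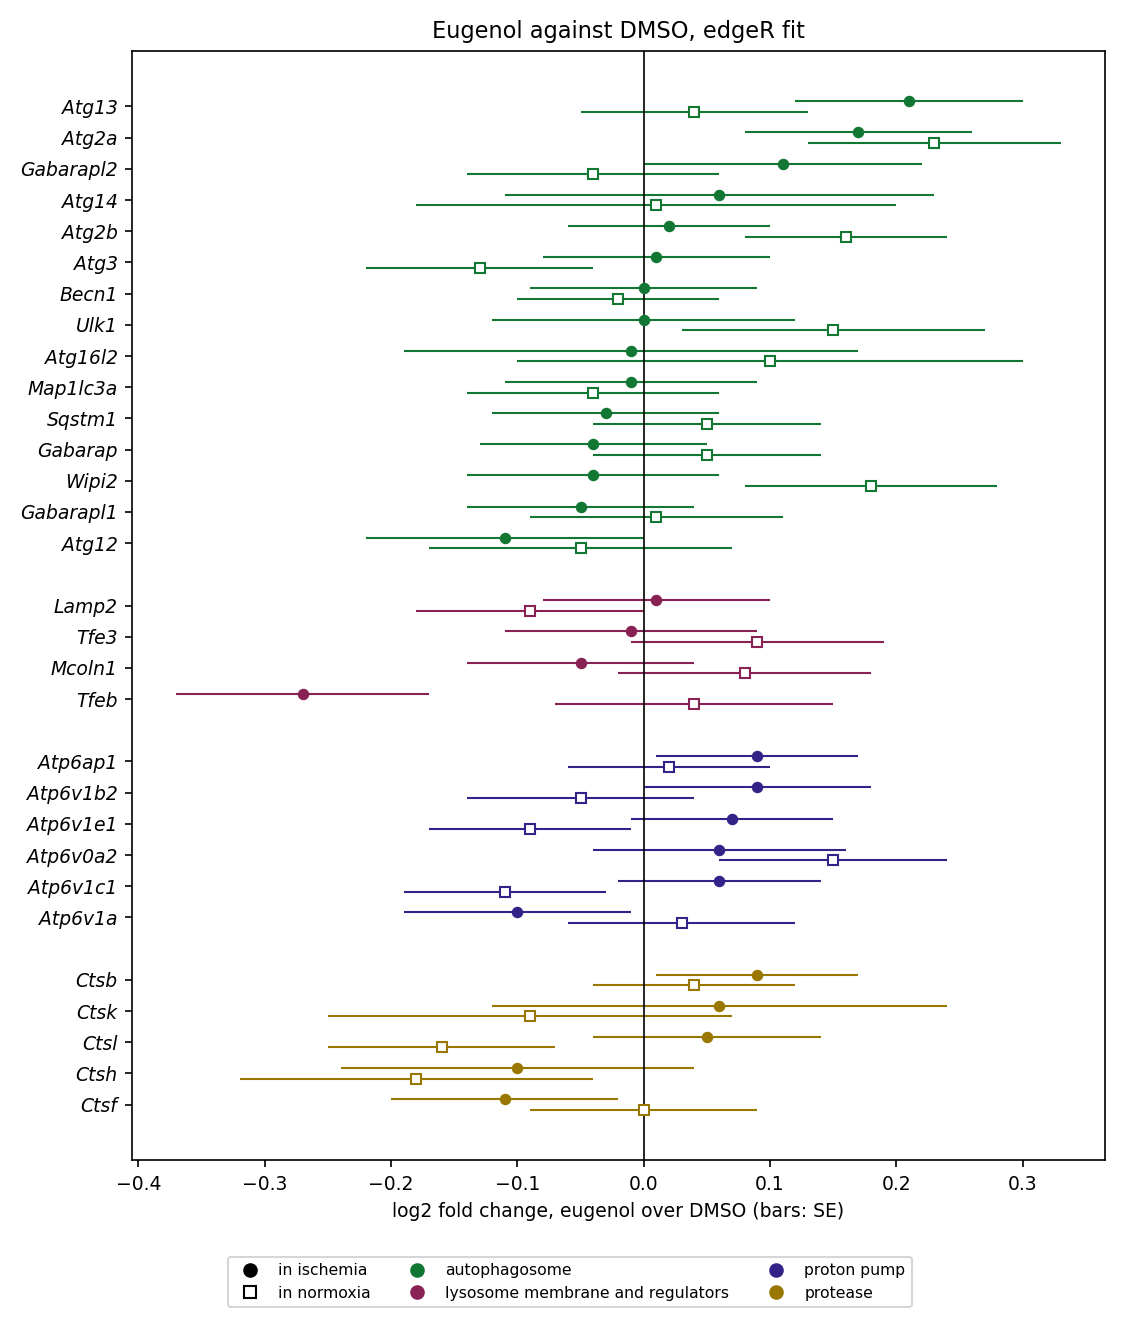
Log2 fold change of eugenol over DMSO for each of the 30 fitted members, in ischemia (filled) and in normoxia (open), from the edgeR fit, with SE as bars and colours for the classes. All lie between -0.27 and 0.23, with Tfeb in ischemia lowest.

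The other 9 members had values in some libraries only. Atp6v1d, of the pump stalk, was the other member listed for eugenol in ischemia, at 128 and 129.8 RPM with DMSO and 157 and 143 RPM with eugenol, a log2 fold change of 0.23 with an adjusted p of 1 in the authors' deposited table. Atp6v0b, a proton-carrying subunit, was at 106 and 105 RPM in normoxia and 133 and 134 RPM in ischemia, both with eugenol (0.34, adjusted p = 0.0043 in the authors' deposited table). Atg101, a ULK1 complex subunit, was at 42.6 and 45.4 RPM and 56.4 and 55.4 RPM in the same groups (0.34, adjusted p = 0.0366 in the authors' deposited table).

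Of the proteases that trim ATG8 proteins, Atg4a was lower in ischemia with eugenol, at 5.30 and 4.97 RPM in normoxia and 2.56 and 2.27 RPM in ischemia (-1.09, adjusted p = 0.0312 in the authors' deposited table). Atg4b (34.1 and 36.9 RPM in normoxia and 43.7 and 46.2 RPM in ischemia, both with DMSO) was not called (0.33, adjusted p = 0.0672 in the authors' deposited table). Atg4d (41.9 and 41.7 RPM in normoxia and 31.2 and 35.4 RPM in ischemia, both with eugenol) was not called either (-0.33, adjusted p = 0.0775 in the authors' deposited table). Wipi1, Atp6v0a1 and Atg9b also missed the threshold, Atg9b at no more than 1.57 RPM in any library.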

How the data were processed

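Total RNA of 8 cardiomyocyte cultures, 2 in each of 4 groups, was made into TruSeq libraries and sequenced on an Illumina HiSeq, per the labels' protocols. HISAT2 and StringTie 1.3.3b, and also DESeq2 and edgeR, appear in the submitters' processing notes with no role stated. The genome build and strand setting are not given in the sources used here. Each of the 5 tables holds one comparison, and its columns carry group codes, for which the comparisons the tables are titled with leave a single assignment to the groups. Per the file headers, the authors deposited for each library a read count, a signal normalized by a size factor and an FPKM value, and for each gene a log2 fold change, a p-value and an adjusted p-value. Only genes with an unadjusted p under 0.05 are listed.

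Counts were joined over the tables by gene, with no conflicting values, and library totals were those behind the deposited FPKM values. Genes with counts in all 8 libraries (6582) were fitted with edgeR 4.0.16 (R 4.3.3) in one quasi-likelihood model of 4 group means. Benjamini-Hochberg adjustment took the number of genes the authors had adjusted, with unlisted genes at p = 1. The interaction used 18972, the largest such number. Tests were two-sided with a threshold of 0.05, and SE is that of the log2 fold change. The fit was also run on simulated counts with 200 changed genes and all others unchanged. That setting differs from these selected genes, of which 98.3% were called in ischemia with DMSO. The run therefore cannot show how the fit performs on them. Alternatives were DESeq2 1.42.0, other scalings, filters and thresholds, the authors' calls, and each library left out. Within groups the libraries differed by more than counting noise (chi-square over its degrees of freedom was 6.67 to 15.5), which is more than 1 library deposited under both numbers would show, and each was entered as 1 sample, although the spread may be technical. Every member may be named. Library values are given for up to 8 called members of each class and for a fixed list of main genes, and of each other list up to 4 called genes with the smallest adjusted p are named, with single genes that went against their list added after their values were seen. The values of 1 gene that this rule names are not reported here. The members and lists were chosen with earlier results of these data known.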

Additional observations from a re-analysis of the deposited data

How the results depend on the processing

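For single members in ischemia against normoxia with DMSO, 540 alternative results came from refits, other cutoffs or adjustment, and the authors' calls. Of these, 495 kept direction and call, 45 kept direction but lost the call, and 0 reversed. The stricter cutoffs were applied to the unchanged main fit, and 6 members met the 2-fold one. Apart from the stricter thresholds, 23 of the 30 members kept their call in all 16 alternatives. The 7 that did not are Atg13, Gabarap, Ctsb, Ctsl, Atp6ap1, Atp6v0a2 and Atp6v1b2, whose values stand in the report. Correlations of same-numbered deviations from the group means ran from -0.235 to 0.12 over 5863 genes. With 2 libraries per group, these cannot decide whether same-numbered libraries share a cell isolation. With the replicate number as a block, 21 members were higher and 9 lower in ischemia with DMSO, 21 and 8 with eugenol and 21 and 8 in the crossed comparison, and 0 were called for eugenol or the interaction, as without it. A crossed pairing, added after seeing the data because of negative correlations, gave 21 and 9 for ischemia with eugenol and 0 for eugenol in normoxia.

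Requiring a fold of at least 2 left 5 members higher and 1 lower with DMSO, 5 and 1 with eugenol, and 5 and 2 for ischemia with eugenol against normoxia with DMSO. In these, autophagosome genes were 4, 5 and 5 higher and 0 lower, regulators 1, 0 and 0 higher, cathepsins 0 higher and, in the first 2 comparisons, 1 lower, and pump genes 0 in either direction. At an adjusted p under 0.01, 1 cathepsin was higher with DMSO and in the crossed comparison, where 1 pump gene was lower. With the 2 groups alone, 1 cathepsin was higher with DMSO. DESeq2 size factors left 1 pump gene lower in each of the 3 ischemia comparisons, and TMM scaling and the authors' calls left 1 in the crossed one.

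Leaving out each library in turn gave 18 to 21 members higher and 7 to 9 lower with DMSO, 18 to 21 and 7 to 9 with eugenol, and 19 to 21 and 7 to 9 in the crossed comparison. With DMSO, autophagosome genes were 11 to 12 higher and 3 lower, regulators 4 higher, cathepsins 1 to 2 higher and 3 lower, and pump genes 2 to 3 higher and 1 to 3 lower. With eugenol these were 10 to 12 and 3, 4, 2 and 2 to 3, and 2 to 3 and 2 to 3. In the crossed comparison they were 12 and 3, 4, 1 to 2 and 2 to 3, and 2 to 3 and 1 to 3. Eugenol and the interaction had 0 members called throughout. A group left with 1 library is assumed to vary like the others. Depth was low for Atg9b, with 2 to 25 reads in a library.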
